A study of Mus musculus with 12 samples.

Results

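Release of RNA polymerase II (RNAPII) from its pause near gene starts is controlled by the kinase complex P-TEFb, and 9 mouse genes of this machinery are described here. They are Cdk9, Ccnt1, Ccnt2, Hexim1, Larp7, Brd2, Ell2, Aff4 and Polr2a. These genes were chosen by name and role out of 34079 genes with exonic values in the deposited table. No measured value was used in the choice, but earlier results of these data were known when it was made. Mouse embryonic stem cells (mESCs) of the DTCM23/49 XY line were grown with LIF and serum on gelatin, and 4-thiouridine (4sU), a uridine analog that is built into RNA as it is made, was added at 200 µM for 15, 30 or 60 min. RNA that had taken up 4sU was biotinylated and pulled down (labeled RNA), and it was sequenced beside total RNA, which still holds that labeled RNA. There were 2 biological replicates per labeling time, which gave 6 labeled and 6 total RNA libraries. Both replicates came from a single culture that was divided and then passaged. The main tests took the libraries as independent, with no term for the culture, so p-values measure the spread between libraries of these cultures only. Every library was from cells exposed to 4sU, and no library from cells without 4sU was analysed here.

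P-TEFb consists of the kinase CDK9 and a cyclin T, and it phosphorylates the C-terminal domain of RNAPII and the pausing factors DSIF and NELF, which lets paused RNAPII enter elongation. Much of the P-TEFb in a cell is kept inactive by HEXIM1 on the 7SK small nuclear RNA, which LARP7 binds and stabilizes. Active P-TEFb is recruited through bromodomain proteins that bind acetylated histones and through the super elongation complex, and many genes of mESCs carry paused RNAPII.

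The deposited values are length-normalized abundances of the exons and of the introns of each transcript, scaled so that every library sums to about the same total. They carry no read depth, and errors here are those between libraries alone. Of the 52 transcripts of the 9 genes in GENCODE M1, 50 had exonic and 49 had intronic values, and 20 of the transcripts with values were annotated as protein coding and 17 as retained introns. All 9 genes passed the filter on low exonic values (a mean of 20 over the libraries), and the 8 genes with introns passed that on intronic values (a mean of 5). The labeled libraries differed among themselves. Introns held 14.8% and 13.9% of all abundance in replicate 1 at 15 and 60 min, 7.24% and 6.99% in replicate 2 at the same times, 9.35% and 10.8% at 30 min, and between 6.53% and 7.41% in total RNA. Results that rest on these libraries are given with and without them. All 9 markers of mESCs were present, with a summed abundance of 19585 to 32334 in labeled and 20838 to 29312 in total RNA. Of 6 fibroblast markers, Col3a1, Dcn and Lum were at 0 in all 12 libraries and Col1a2 in 11. Thy1 was present in all 12 at 21.9 to 51.9, and so was Col1a1 at 1.81 to 4.55. The fibroblast list summed to between 23.9 and 55.8, mostly from Thy1. The 5 endoderm markers summed to between 2.55 and 23.1, and the 3 neural markers that were found to between 163 and 409, mostly from Tubb3. Whether other cells took part in any result was not tested.

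In the RefSeq annotation of GRCm38.p6, Cdk9 lies at chr2:32705782-32712784, Ccnt1 at chr15:98538690-98567736, Ccnt2 at chr1:127774164-127804837, Larp7 at chr3:127536714-127553349, Brd2 at chr17:34112019-34122814 and Ell2 at chr13:75707484-75772361. Hexim1, Aff4 and Polr2a all lie on chromosome 11, at chr11:103116325-103119725, chr11:53350640-53421830 and chr11:69733997-69758633, and mm10 of the submitters' processing notes is the same assembly. Hexim1 has a single exon, so the gene has no intronic value. Promoter windows, from 250 bases before to 50 bases after the annotated start, are shown for Hexim1 and Polr2a because these genes lie at opposite ends of the exonic differences below. All 9 genes matched the RefSeq promoter table. The capitals mark CCAAT boxes (CCAAT or ATTGG), GC boxes (GGGCGG or CCGCCC) and TATAAA or TTTATA on either strand, and no marked motifs overlap in these windows. The Hexim1 window is chr11:103116075-103116374 on the plus strand, and the Polr2a window is chr11:69758584-69758883 on the minus strand.
Hexim1: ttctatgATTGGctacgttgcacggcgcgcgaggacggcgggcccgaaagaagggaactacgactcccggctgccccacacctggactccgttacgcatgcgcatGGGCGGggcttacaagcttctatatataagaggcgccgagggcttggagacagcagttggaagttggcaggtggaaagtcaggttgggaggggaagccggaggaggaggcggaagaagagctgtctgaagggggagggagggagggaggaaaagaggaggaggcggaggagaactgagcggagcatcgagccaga
Polr2a: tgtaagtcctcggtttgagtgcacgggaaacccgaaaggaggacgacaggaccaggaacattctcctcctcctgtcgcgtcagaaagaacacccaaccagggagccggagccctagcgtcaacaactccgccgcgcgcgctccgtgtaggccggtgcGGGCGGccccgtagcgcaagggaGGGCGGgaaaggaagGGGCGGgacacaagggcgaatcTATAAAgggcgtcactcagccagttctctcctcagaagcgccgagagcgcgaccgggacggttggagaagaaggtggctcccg
The Hexim1 window held 1 CCAAT box and 1 GC box, and the Polr2a window held 3 GC boxes and 1 TATAAA. Over the genes, CCAAT boxes were found in windows of 5 of 9 genes, GC boxes in 8 of 9 and TATAAA in Polr2a alone. Among all 32851 promoter windows of the same length, 37.4% held a CCAAT box, 35.7% a GC box and 13.6% a TATAAA.

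Because the comparison of labeled with total RNA depends on how long an RNA lasts, AU-rich motifs in the 3′ untranslated regions of the 3 genes whose exonic abundance passed the test are shown as well. ATTTA and the longer TATTTAT, which contains it, were searched on the sense strand in the longest protein-coding transcript with values of each gene, with the sequence of GENCODE M1. Each line gives 27 bases around the first TATTTAT or, where there was none, the first ATTTA, with the motif in capitals.
Hexim1: ggtttggtaaATTTAgctatgatgttg
Aff4: agtaaaattcTATTTATtttcattttt
Polr2a: ggatacaggcATTTAactttggaaggc
These windows span bases 1801 to 1827 of the Hexim1 transcript, 4061 to 4087 of the Aff4 transcript and 6607 to 6633 of the Polr2a transcript. Aff4 had the longest 3′ untranslated region of the 9 genes, with 21 ATTTA in 6315 bases (3.33 per kb) and 6 TATTTAT. The Hexim1 region held 3 ATTTA in 1733 bases (1.73 per kb), and that of Polr2a held 1 in 413 bases (2.42 per kb). Of 10247 coding genes tested with such a region, 67.9% held ATTTA and 27.9% held TATTTAT, and the median was 1.33 ATTTA per kb. These matches are letters in a sequence and say nothing of a factor at them.

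Exonic abundance was compared between labeled and total RNA to ask which of these RNAs weigh more among newly made than among all RNA of the cell. Of the 9 genes, Hexim1 rose in labeled RNA, Polr2a and Aff4 fell, and the other 6 did not pass the test. Calls were made in 2353 of all 13977 genes tested, which is 16.8%, with 5.28% higher and 11.6% lower. Higher calls were 31.4% of all calls, and 45.7% of 2974 calls when libraries were scaled by their median ratio, with the same number of the 9 genes called in either direction. With labeling time and replicate number as a block, 9.09% of all genes and 1 of the 9 (Polr2a, adjusted p = 0.0419 in limma) were called. The median difference of the 9 genes was -0.24 on the log2 scale, beside -0.05 over all genes tested. Differences are of log2(value + 1), labeled minus total, with their standard error (SE). These are bulk samples, in which fewer cells of a type and less RNA per cell cannot be told apart.

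**Figure D1:**
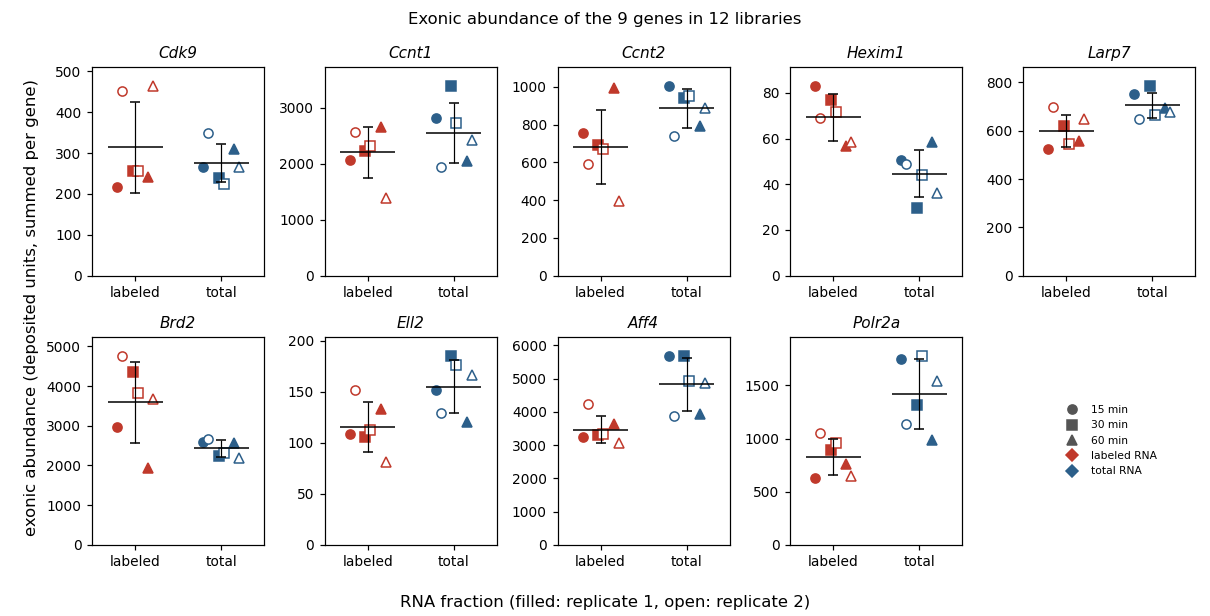
Exonic abundance (deposited units, summed over the transcripts of each gene, axes from 0) of the 9 genes in the 6 labeled and 6 total RNA libraries. Symbols give the labeling time, filled symbols replicate 1 and open symbols replicate 2, and lines the mean with the SD; 5 of 6 labeled libraries lie above all total libraries for Hexim1 and below all of them for Polr2a and Aff4.

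Among the P-TEFb subunits, none passed the test. Cdk9, the kinase, had exonic abundances from 218 to 464 with a median of 256 in labeled RNA and from 223 to 348 with a median of 266 in total RNA. The groups overlapped, since replicate 2 at 15 and 60 min was above all total libraries in labeled RNA and replicate 1 at 15 min below them. The difference was 0.14 ± 0.20 (SE, n = 6 per group, adjusted p = 0.669 in limma), and it took the other sign, -0.15, without replicate 2 at 15 and 60 min of labeled RNA. Ccnt1 encodes cyclin T1, the partner of CDK9 in most P-TEFb, and it ranged from 1383 to 2651 (median 2277) in labeled and from 1935 to 3385 (median 2572) in total RNA. These ranges overlapped for all but 1 labeled library, with a difference of -0.22 ± 0.17 (adjusted p = 0.393 in limma). Ccnt2, which encodes cyclin T2, ranged from 394 to 994 (median 681) in labeled and from 737 to 1002 (median 914) in total RNA. 4 of 6 labeled libraries were below all total libraries, and the difference of -0.42 ± 0.19 missed the threshold (adjusted p = 0.152 in limma). Replicate 1 at 60 min was the highest labeled library of Ccnt2, and without it the difference was -0.59 (adjusted p = 0.0179 in limma).

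The inhibitory side of the pathway held the gene that rose. Hexim1 encodes the protein that blocks the kinase of P-TEFb, and its exonic abundance ran from 56.6 to 82.9 with a median of 70.2 in labeled RNA. In total RNA it ran from 29.7 to 58.3 with a median of 46.5, so 5 of 6 labeled libraries were above all total libraries and the ranges overlapped through 1 labeled library at 60 min. Hexim1 was 1.56-fold higher in labeled RNA (log2 difference 0.65 ± 0.18, adjusted p = 0.0297 in limma), above 91.7% of genes tested. This call held without any 1 of 4 libraries (labeled replicate 2 at 15 min, both labeled replicates at 60 min, total replicate 1 at 60 min) and was lost without any 1 of the other 8, with differences from 0.53 to 0.67 and adjusted p up to 0.0797 in limma. It was also lost with labeling time and replicate number as a block (adjusted p = 0.0715 in limma), with no filter on low values (adjusted p = 0.0525 in limma) and without the 2 labeled libraries of highest intronic share (0.67, adjusted p = 0.0585 in limma). Larp7 encodes the 7SK-binding protein, and it ran from 525 to 697 (median 589) in labeled and from 651 to 784 (median 687) in total RNA. 5 of 6 labeled libraries were below all total libraries, with a difference of -0.24 ± 0.11 that missed the threshold (adjusted p = 0.145 in limma) and reached it without the 2 labeled libraries of lowest intronic share (-0.34, adjusted p = 0.0274 in limma).

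On the side of recruitment, Brd2, a bromodomain protein of the BET family, did not pass the test. Its exonic abundance ran from 1935 to 4766 (median 3745) in labeled and from 2194 to 2657 (median 2445) in total RNA. 5 of 6 labeled libraries were above all total libraries and 1, replicate 1 at 60 min, was below them. The difference of 0.51 ± 0.18 missed the threshold (adjusted p = 0.0704 in limma) and was 0.67 without that library (adjusted p = 0.00714 in limma). Ell2, an elongation factor of the super elongation complex, ran from 80.8 to 152 (median 111) in labeled and from 120.1 to 186 (median 159) in total RNA, with 4 labeled libraries below all total libraries. Its difference was -0.43 ± 0.17 (adjusted p = 0.0975 in limma), and it passed without labeled replicate 2 at 15 min (-0.53, adjusted p = 0.0391 in limma) or labeled replicate 1 at 60 min (-0.52, adjusted p = 0.0471 in limma). Aff4, the scaffold of the super elongation complex, ran from 3062 to 4238 (median 3323) in labeled and from 3868 to 5691 (median 4900) in total RNA. All labeled libraries but replicate 2 at 15 min were below all total libraries. Aff4 was 1.38-fold lower in labeled RNA (log2 difference -0.47 ± 0.13, adjusted p = 0.0273 in limma). The call held without any 1 of 5 libraries (labeled replicate 2 at 15 min, both labeled replicates at 60 min, total replicate 2 at 15 min, total replicate 1 at 60 min) and was lost without any 1 of the other 7, with differences from -0.47 to -0.42 and adjusted p up to 0.0742 in limma. It was lost as well with the replicate block (adjusted p = 0.0875 in limma) and without the 2 labeled libraries of highest intronic share (-0.48, adjusted p = 0.0557 in limma).

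Polr2a, which encodes the largest and catalytic subunit of RNAPII, differed most of the 9 genes. Its exonic abundance ran from 633 to 1053 with a median of 828.9 in labeled RNA and from 988 to 1781 with a median of 1429.5 in total RNA. 5 of 6 labeled libraries were below all total libraries, and the sixth, replicate 2 at 15 min, was above 1 of them. Polr2a was 1.71-fold lower in labeled RNA (log2 difference -0.78 ± 0.17, adjusted p = 0.011 in limma), and 2.98% of genes tested had a lower difference. The call held without any 1 of the 12 libraries, with differences from -0.87 to -0.68 and adjusted p between 0.00649 and 0.0348 in limma. Without the 2 labeled libraries of highest intronic share it was -0.70 (adjusted p = 0.0359 in limma), and without the 2 of lowest share -0.84 (adjusted p = 0.0123 in limma). With all of replicate 1 or all of replicate 2 left out, the difference kept its direction at -0.75 and -0.80 but no gene of the 9 was called, and 0 and 5 genes were called of all genes tested.

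**Figure D2:**
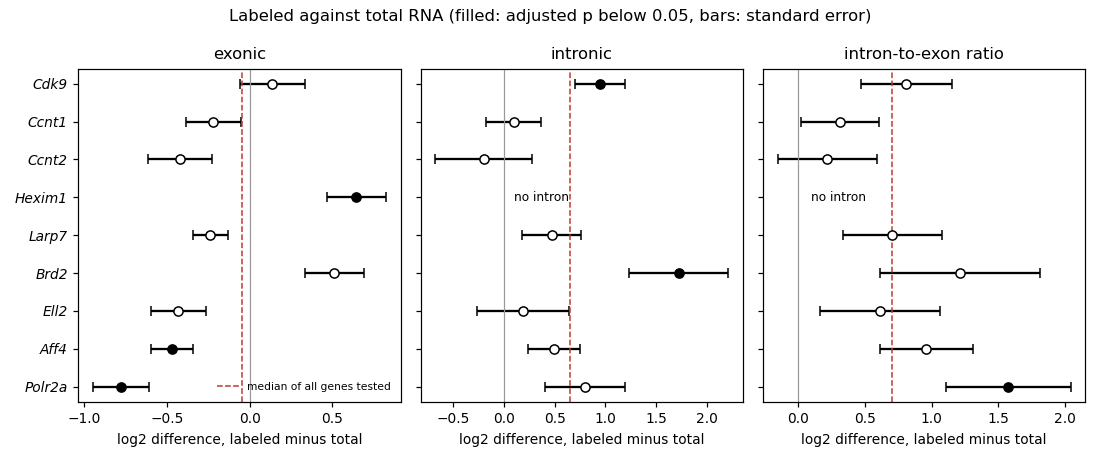
Log2 differences between labeled and total RNA (x axis, labeled minus total) of the 9 genes for exonic abundance, intronic abundance and the intron-to-exon ratio, with bars for the SE and filled symbols for an adjusted p below 0.05. The dashed line is the median of all genes tested, at -0.05, 0.65 and 0.70; Hexim1 lies to the right of it and Polr2a to the left in the exonic panel, and Cdk9 and Brd2 are the filled points of the intronic panel.

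Single transcripts gave the same direction for most isoforms, although transcripts of a gene share exons and are not independent. Over all 45537 transcripts tested, 5.28% were called higher and 12% lower in labeled RNA. All 4 tested transcripts of Polr2a had lower values in labeled RNA, from -1.14 to -0.56 on the log2 scale, and 3 of them were called lower, among them both protein-coding transcripts. All 8 of Aff4 were below 0, and 3 were called lower. All 10 of Brd2 were above 0, and 3 were called higher, of which 2 were annotated as retained introns (differences of 0.79 and 0.70) and 1 was the longest protein-coding transcript with values (0.55, adjusted p = 0.0456 in limma). Of 5 transcripts of Cdk9, 1 was called higher, and it was a retained-intron transcript (0.51, adjusted p = 0.0285 in limma). None of the 9 transcripts of Ccnt1 or of the 7 of Ccnt2 was called.

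The transcripts also differ in length and in uridine, the base that 4sU replaces. Uridine made up 17.9% of the bases of the longest coding transcript of Larp7, 20.5% in Brd2, 21.8% in Cdk9, 23.3% in Polr2a, 24.1% in Hexim1, 26.5% in Ell2, 27.3% in Aff4, 28.8% in Ccnt1 and 29.1% in Ccnt2. The median over 10632 coding genes tested was 24.5%. Of the called genes, Hexim1 lay above 45.9% of these genes in its share of uridine, Polr2a above 36.8% and Aff4 above 77.1%. These transcripts had 10099 bases in Aff4 and 6740 in Polr2a, which fell, and 3401 in Hexim1, which rose. Of the genes that did not pass, Ccnt1 had 7397 bases, Ccnt2 6738, Brd2 4483, Ell2 3647, Larp7 1880 and Cdk9 1733. Across these coding genes, which share the same 12 libraries, the exonic difference correlated with transcript length at a Spearman rho of -0.33 and with the share of uridine at -0.18, and the part of either in the differences of the 9 genes was not tested.

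Intronic abundance was compared next, since introns mark RNA that is not yet spliced. Of the 8 genes with introns, Cdk9 and Brd2 rose in labeled RNA and the other 6 did not pass the test. Over all 14780 genes tested, 30.4% were called, nearly all of them higher (30.2% higher and 0.21% lower), so the share of 2 in 8 is near the background. The median difference of the 8 genes was 0.48, beside 0.65 over all genes tested.

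**Figure D3:**
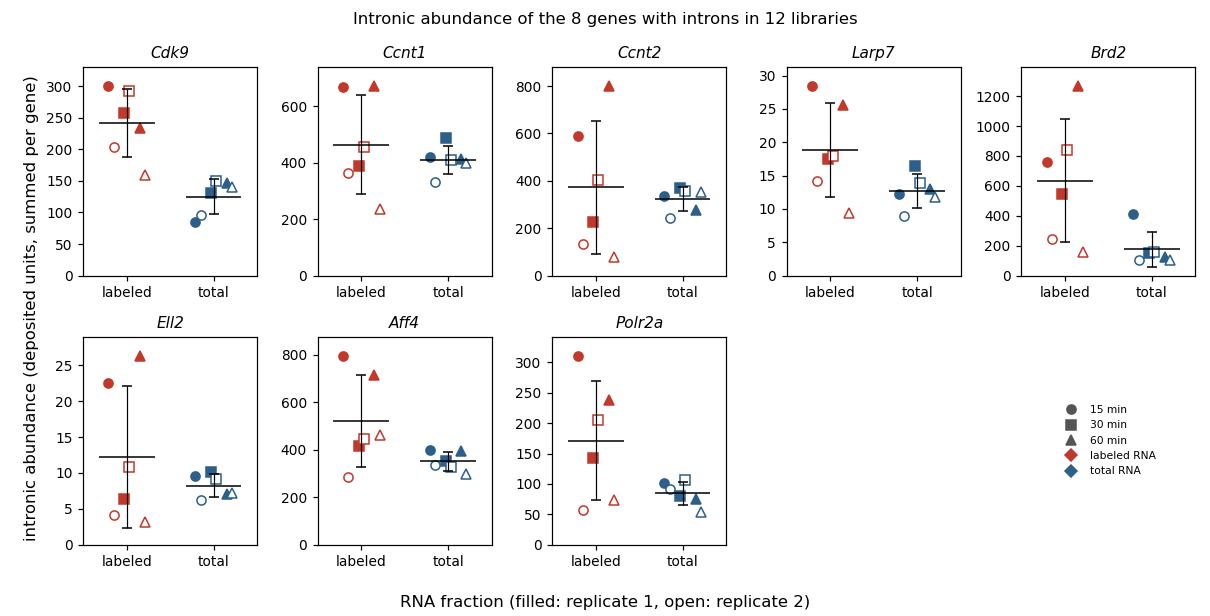
Intronic abundance (deposited units, summed over the transcripts of each gene, axes from 0) of the 8 genes with introns in the 6 labeled and 6 total RNA libraries. Symbols give the labeling time, filled symbols replicate 1 and open symbols replicate 2, and lines the mean with the SD; all 6 labeled libraries lie above all total libraries for Cdk9, and replicate 2 at 15 and 60 min gives the lowest 2 labeled values of all 8 genes except Aff4.

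Cdk9 was the only gene of the 8 whose groups did not overlap, and how common this is among all genes tested was not counted. Its intronic abundance ran from 160.2 to 299.9 (median 246) in labeled RNA and from 85.4 to 150.1 (median 136) in total RNA. Cdk9 introns were 1.93-fold higher in labeled RNA (log2 difference 0.95 ± 0.24, adjusted p = 0.0116 in limma), and the call held without any 1 of the 12 libraries, with differences from 0.82 to 1.08. With all of replicate 1 left out the difference was 0.75 and was not called (adjusted p = 0.192 in limma). 6 of 7 Cdk9 transcripts with tested introns were called higher, where 25% of all transcripts were. Transcripts of a gene share introns too, so these calls, like those of Brd2 below, are not independent.

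Brd2 introns ran from 155 to 1265 (median 654) in labeled and from 102 to 414 (median 137) in total RNA, with 4 of 6 labeled libraries above all total libraries. The summed introns were 3.30-fold higher in labeled RNA (log2 difference 1.72 ± 0.49, adjusted p = 0.0179 in limma). The call was lost without total replicate 2 at 15 min (1.55, adjusted p = 0.0507 in limma) and without the 2 labeled libraries of highest intronic share (1.12, adjusted p = 0.0615 in limma). Between 0 and 66.5% of the summed Brd2 introns came from 2 transcripts whose introns add up to under 100 bases, where the length normalization rests on few positions. The other 8 Brd2 transcripts with tested introns were all called higher, and the longest coding transcript with values was so at 1.21 ± 0.31 (adjusted p = 0.0134 in limma).

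Of the 6 genes that did not pass, all but Aff4 had their lowest labeled values in replicate 2 at 15 and 60 min, the libraries of lowest intronic share. On its longest coding transcript, Aff4 also had its lowest labeled introns, 20.45 and 29.72, in these libraries. The Aff4 difference on that transcript was 0.24 ± 0.35 (adjusted p = 0.603 in limma). Polr2a introns ran from 57.3 to 311 (median 174) in labeled and from 54.3 to 107 (median 85.6) in total RNA, a difference of 0.80 ± 0.39 (adjusted p = 0.125 in limma). Without both of these libraries the difference was 1.39 (adjusted p = 0.000453 in limma), without the 2 of highest intronic share it was 0.23 (adjusted p = 0.557 in limma), and without all of replicate 1 it was 0.24 (adjusted p = 0.772 in limma). Aff4 differed by 0.49 ± 0.26 and Larp7 by 0.47 ± 0.29, with ranges of 287 to 797 and 9.36 to 28.4 in labeled and of 298 to 398 and 8.88 to 16.5 in total RNA. Larp7 introns also hold the microRNAs Mir302a, Mir302b, Mir302c, Mir302d and Mir367 on the opposite strand, and no source used here says that reads were assigned by strand, so RNA of that cluster cannot be told apart from Larp7 introns. On the same strand, M1 lists 2 predicted miRNAs within Cdk9, SNORA42 within Ell2 and U6 within Aff4, whose reads no strand setting would separate. Ccnt1, whose span also overlaps a transcript on the opposite strand (9330020H09Rik), differed by 0.10 ± 0.27, Ell2 by 0.19 ± 0.45 and Ccnt2 by -0.20 ± 0.48. Of 9 Ccnt1 transcripts with tested introns, 8 were above 0 and 1 was at -0.37, and none was called. The introns of that 1 transcript ran from 180 to 305 in total RNA, where the Ccnt1 sum ran from 331 to 485. Introns of the longest coding transcript of Ccnt1 differed by 0.65 ± 0.33 (adjusted p = 0.149 in limma). Ell2 introns were at 22.6 and 26.3 in labeled replicate 1 and at 4.15 and 3.22 in replicate 2 at 15 and 60 min, with total RNA between 6.17 and 10.1. Ccnt2 introns were likewise at 591 and 798 against 135 and 78.0, with total RNA between 243 and 370.2. Without the 2 libraries of highest intronic share, Ccnt1, Ell2 and Ccnt2 stood at -0.27, -0.57 and -0.99, and Ccnt2 was then called lower (adjusted p = 0.0228 in limma). Without the 2 of lowest intronic share, 6 of 8 genes were called higher, where 89.2% of all genes tested were called, and Ccnt2 stood at 0.57. These libraries were set aside for their introns, so the direction of these shifts follows from the choice.

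The intron-to-exon ratio sets both measures of a gene against each other within a library. All 8 genes had a higher ratio in labeled than in total RNA, from 0.22 in Ccnt2 to 1.57 in Polr2a, with a median of 0.76 beside 0.70 over all 10228 genes tested. Polr2a was called (2.98-fold, log2 difference 1.57 ± 0.47, adjusted p = 0.0262 in limma), and 25.7% of all genes tested were called. The Polr2a call was lost without any 1 of 7 libraries (labeled replicate 1 at 15 min, replicate 2 at 30 min and replicate 1 at 60 min; total replicate 1 at 15 min, both at 30 min and replicate 2 at 60 min), with log2 differences from 1.22 to 1.57 and adjusted p up to 0.0728 in limma. With the replicate block Polr2a was called with Aff4 (adjusted p = 0.0394 in limma) and Brd2 (adjusted p = 0.0405 in limma), 3 of 8 genes beside 33.9% of all genes. Without the block, Aff4 came next to the threshold at 0.96 ± 0.35 (adjusted p = 0.0512 in limma), followed by Cdk9 at 0.81 ± 0.34 (adjusted p = 0.0833 in limma) and Brd2 at 1.21 ± 0.60 (adjusted p = 0.128 in limma). Without the 2 labeled libraries of highest intronic share no gene of the 8 was called, where 16.8% of all genes were, and without the 2 of lowest share all 8 were, where 82.7% of all genes were.

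**Figure D4:**
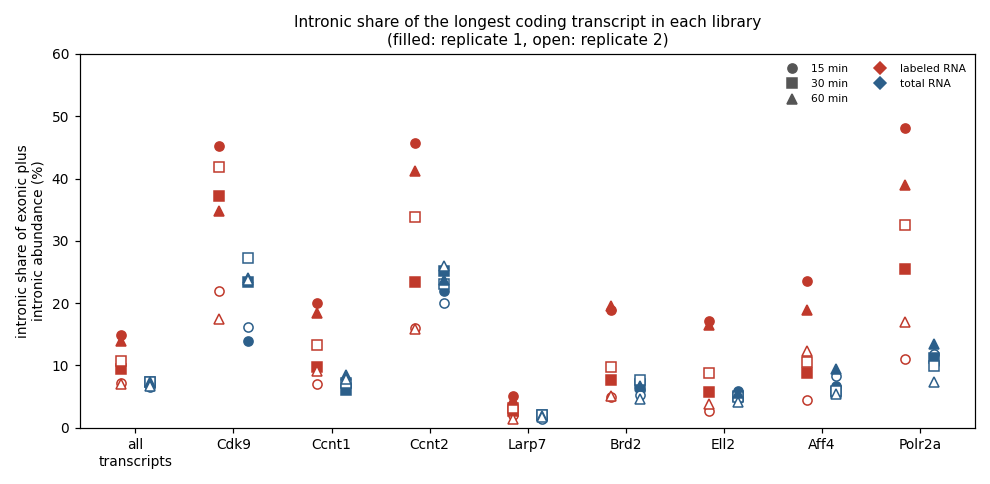
Intronic share of exonic plus intronic abundance (y axis, percent) in the longest coding transcript of each of the 8 genes and over all transcripts, in each of the 12 libraries. Symbols give the labeling time, filled symbols replicate 1 and open symbols replicate 2; Cdk9 and Ccnt2 have the highest shares in total RNA and Larp7 the lowest, and labeled replicate 1 at 15 and 60 min lies above labeled replicate 2 at the same time in every gene.

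As a share of exonic plus intronic abundance in the longest coding transcript, introns made up 23.3 ± 2.17% (SD, n = 6) of Ccnt2 and 21.4 ± 5.20% of Cdk9 in total RNA, 10.6 ± 2.06% of Polr2a and 1.76 ± 0.27% of Larp7. The shares of Brd2, Ccnt1, Aff4 and Ell2 lay between 5.05% and 7.21%. In labeled RNA the mean share was 29.3 ± 12.9% for Ccnt2, 33.1 ± 11.1% for Cdk9, 28.9 ± 13.8% for Polr2a and 3.14 ± 1.41% for Larp7. Polr2a thus moved from 7.33% to 13.4% in total RNA to between 11.03% and 48.2% in labeled RNA, and its lowest labeled library lay within the total range.

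Levels between genes were compared on the length-normalized abundance of the longest coding transcript in total RNA, because the transcripts of a gene appear to have been quantified one by one and gene sums count shared exons repeatedly. Larp7 was highest at 705 ± 52.4 (SD, n = 6), followed by Aff4 at 504 ± 103, Polr2a at 351 ± 66.1, Ccnt1 at 300.4 ± 42.6 and Brd2 at 281 ± 15.5. Ccnt2 at 162 ± 18.9, Ell2 at 155 ± 26.1, Cdk9 at 56.0 ± 5.88 and Hexim1 at 44.6 ± 10.4 were lower. Neighbors in this order whose ranges overlapped were Aff4 and Polr2a, Polr2a and Ccnt1, Ccnt1 and Brd2, Ccnt2 and Ell2, and Cdk9 and Hexim1. On these transcripts the kinase gene was thus lower than both cyclin genes in every total library. The order depends on the transcript taken. In total RNA a retained-intron transcript of Aff4 ran from 655 to 1134, and a shorter coding transcript of Brd2 ran from 366 to 428.

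**Figure D5:**
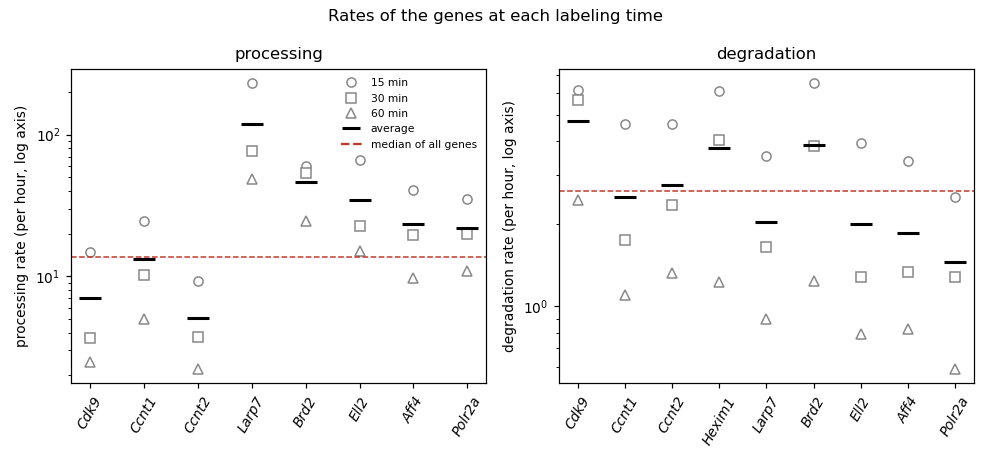
Processing and degradation rates (y axes, per hour, log axes) of the genes at 15, 30 and 60 min, with the average over the times as a bar and the median of all genes with a rate as a dashed line. Rates fall with labeling time in each gene, which largely follows from dividing libraries of about the same total by a longer time. Larp7 has the highest processing rate, and Cdk9, Brd2 and Hexim1 have the highest average degradation rates.

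Rates were described from the same values, with no test. The synthesis rate was labeled exonic abundance per hour of labeling, the processing rate divided this by the introns of total RNA, and the degradation rate divided it by the exons minus the introns of total RNA. Every library has about the same total whatever part of the RNA was labeled, so division by a longer time lowers the rate. Rates at 15 min were higher than at 60 min in every gene, and only the order of genes is read. The average processing rate of Larp7 was 119 per hour (96.9 and 149 in the replicates), above 96.4% of 10431 genes with a rate, where the median was 13.8. Ccnt2 was lowest at 5.09 per hour (5.46 and 4.86), above 14.7% of genes, and Cdk9 had 6.97 per hour (5.25 and 8.55). Brd2 had 46.1, Ell2 34.7, Aff4 23.3, Polr2a 21.9 and Ccnt1 13.3 per hour. The replicates of Brd2 stood at 34.2 and 90.3. These rates divide gene sums that count shared exons and introns repeatedly, and on the longest coding transcript the middle of the order changed. Larp7 (119), Brd2 (56.6) and Ell2 (34.7) stayed first and Ccnt2 (5.68) last, while Ccnt1 stood at 28.7, Aff4 at 22.0, Cdk9 at 12.6 and Polr2a at 11.1 per hour.

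The degradation rate mostly restates the exonic comparison, with labeled over total RNA in both. Cdk9 at 4.75 per hour (3.68 and 5.95 in the replicates), Brd2 at 3.88 (3.48 and 4.25) and Hexim1 at 3.79 (4.24 and 3.50) were the highest 3, where the median of 12832 genes was 2.62. Their order among themselves did not hold, with Hexim1 first in replicate 1, Brd2 first at 15 min and Brd2 first on the longest coding transcript, at 3.94. At 60 min alone, Ccnt2 (1.32) stood above Brd2 (1.24) and Hexim1 (1.22). Polr2a was lowest at 1.45 per hour (1.27 and 1.87), above 2.0% of genes, and Aff4 had 1.85, Ell2 2.00 and Larp7 2.03. Ccnt2 at 2.77 and Ccnt1 at 2.49 lay near the median. On the longest coding transcript Polr2a was again lowest, at 1.498.

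Labeling time was the other factor of the design. Exonic abundance in labeled RNA after 60 against 15 min was lower for 8 of the 9 genes, from -0.50 for Brd2 to 0.09 for Cdk9, and no gene of the 9 was called. Their median was -0.21 beside -0.09 over all genes, and with median-ratio scaling it was -0.13 beside -0.015. No gene at all was called over 13977 tested (0%), while 178 genes (1.27%) had an unadjusted p under 0.05 in limma. In total RNA the differences lay between -0.19 and 0.01, with 0 genes called in limma and 108 (0.773%) at an unadjusted p under 0.05. The labeled-to-total difference changed by -0.35 (Brd2) to 0.18 (Cdk9) between 15 and 60 min, with 0 genes called in limma and 162 (1.16%) at an unadjusted p under 0.05. The SE of these changes was 0.295 to 0.533 for the 9 genes, with 2 libraries per group, so a change of that size was not detectable.

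Other factors of pausing and elongation were described from a list of 30 genes. Of 29 tested for exonic abundance, 10 fell in labeled RNA, none rose and 19 did not pass. Over all genes tested, 11.6% were called lower and 5.28% higher. The median difference of the list was -0.27 beside -0.05 over all genes. Hexim2, a paralog of Hexim1 (0.67 ± 0.26), and Mepce, the 7SK capping enzyme (0.63 ± 0.29), lay on the other side without passing, at adjusted p of 0.0953 and 0.160 in limma. Eaf2 (0.55 ± 0.36), Ell3 (0.33 ± 0.18), Paf1 (0.09 ± 0.11), Nelfb (0.08 ± 0.20) and Nelfcd (0.03 ± 0.13) were also above 0 without passing. All of these were named after their values were seen. Of the genes that passed, the 6 with the largest differences were Aff3 (-0.71 ± 0.16), a paralog of Aff4, Tcea1 (-0.60 ± 0.09), an elongation factor that rescues stalled RNAPII, Mllt3 (-0.60 ± 0.12), a super elongation complex subunit, Ccnk (-0.55 ± 0.14), the cyclin of CDK12 and CDK13, Iws1 (-0.52 ± 0.10) and Supt6 (-0.52 ± 0.12), which bind each other during elongation. Introns rose for 9 of 30 tested, none fell, and the median was 0.59 beside 0.65 over all genes, of which 30.2% were called higher. The ratio rose for 8 of 29, beside 25.5% of all genes, so both counts are near the background.

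The other subunits of RNAPII were described from a list of 11 genes. Of 11 tested for exonic abundance, Polr2k rose (0.70 ± 0.14, adjusted p = 0.00631 in limma), none fell and 10 did not pass, with a median of 0.10. The median over all genes tested was -0.05, and 5.28% of them were called higher and 11.6% lower. Polr2b, the second largest subunit, had the lowest difference (-0.35 ± 0.12, adjusted p = 0.0719 in limma), and it was named after its value was seen. Introns rose for 7 of 11, with a median of 1.13 beside 0.65 over all genes, of which 30.2% were called higher, and the ratio rose for 5 of 11, beside 25.5% of all genes. A test of the difference between Polr2a and these genes was not made. Over the 12 libraries, the 3 genes whose log2 exonic abundance was most like that of Polr2a among 13976 were Dync1h1 (Pearson r = 0.98), Med13 (0.97) and Hcfc1 (0.97), as a description, since all genes share these libraries and their scaling.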

How the data were processed

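The 12 libraries were labeled and total RNA of mESCs after 15, 30 or 60 min of 4sU, with 2 replicates each, and groups follow the sample labels. The deposited values are a signal, exonic and intronic abundance per transcript, which the authors normalized by length and scaled to a total of 19988830 to 19992902 per library, and values of 1 or less are missing from the file. The submitters' processing notes name STAR 2.5.0, RSEM and mm10, and the strand setting of counting is not given in the sources used here. Depth is unknown, so no counting interval was computed.

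Transcripts were joined to genes by identifier in GENCODE M1, which held 83847 of 121429 exonic transcripts (69.1%), and the others were not used. Abundances were summed per gene with missing values as 0, filtered at a mean of 20 (exonic) or 5 (intronic), and tested on log2(value + 1) with limma 3.58.1 in R 4.3.3, with a mean-variance trend and labeling time as covariate. P-values are two-sided and adjusted by Benjamini-Hochberg over all genes tested at a threshold of 0.05. Of 3954 transcripts contained in a longer one, 82.0% had a value within 2-fold of it (median ratio 1.04), so gene sums count shared exons repeatedly. Tables and figures were made in Python 3.11.15 with numpy 2.4.6, pandas 2.3.3 and matplotlib 3.10.9. The tests of exonic and intronic abundance between labeled and total RNA were run on simulated data with known changes. The test of a change in this difference with labeling time was run on simulated data without such a change. The ratio test and the labeling-time tests within labeled or within total RNA were not simulated.

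The 9 genes and the lists were chosen with earlier results of these data known. All 9 are named, and from each list up to 6 called genes with the largest exonic difference. Alternatives were another pseudocount, no filter, median-ratio scaling, single transcripts, missing values as 1, a replicate block and leaving out each library. Leaving out the libraries of highest or lowest intronic share, crossing the block at 60 min and taking levels and rates from the longest coding transcript were chosen after seeing the data.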

Additional observations from a re-analysis of the deposited data

Results flagged for a closer look

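Brd2 introns in total RNA stood at 413.6 in replicate 1 at 15 min, while the nearest of the other 5 total libraries was at 156. The gap was 0.827 of the range of the group, above the critical value of 0.625 for 6 samples. In that library 65.7% of the summed Brd2 introns came from a single intron of 88 bases. It was the only one of 34 groups tested in which a library stood apart in this way, where chance gives about 1 in 20.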

How the results depend on the processing

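The exonic call of Polr2a and the intronic calls of Cdk9 and Brd2 held under another pseudocount, no filter, median-ratio scaling, missing values as 1 and the replicate block. Testing single transcripts gave 7888 exonic, 13001 intronic and 7103 ratio calls over all transcripts, 0 of them for the ratio of the transcript of highest mean in each of the 8 genes with introns, and Aff4 (-0.45, adjusted p = 0.0918) and the Polr2a ratio (1.25, adjusted p = 0.0621) missed the threshold in limma. The ratio was called for 2 of the 8 genes with a pseudocount of 20 (28% of all genes) and for 2 with missing values as 1 (26.3%). For labeling time, no filter gave 6 calls in labeled RNA, 8 in total RNA and 8 for the change in the difference, a pseudocount of 20 gave 4 in total RNA and 4 for the change, and median-ratio scaling and missing values as 1 gave 3 each in total RNA.

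The sources used here do not say whether labeled and total libraries of 1 number came from 1 plate, and they deviated from their group means with correlations of only -0.07, 0.05 and -0.19 at 15, 30 and 60 min. With a replicate block, 1270 genes and 1 of the 9 (Polr2a) were called for exonic abundance, with Hexim1 at an adjusted p of 0.0715 and Aff4 at 0.0875 in limma, and 3 of 8 were called for the ratio (33.9% of all genes). With the block crossed at 60 min, 2 of 8 were called for the ratio (30.6% of all genes) and Brd2 was called for exonic abundance (adjusted p = 0.0493 in limma).

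Without the 2 labeled libraries of highest intronic share, ratio calls were 1720 over all genes and 0 among the 8, and the sign turned for the introns of Ell2 (-0.57) and Ccnt1 (-0.27) and for the ratios of Ell2 (-0.060) and Ccnt2 (-0.32). Without the 2 of lowest share, intronic calls were 13186 with 6 of the 8, ratio calls were 8456 with 8 of the 8, and the sign turned for exonic Cdk9 (-0.15) and for the introns of Ccnt2 (0.57).

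Leaving out 1 library, or all of 1 replicate number, gave 0 to 2931 exonic calls with 0 to 6 of the 9, 1833 to 8052 intronic calls with 1 to 4 of the 8, and 435 to 6263 ratio calls with 0 to 5 of the 8. For labeling time it gave 0 to 8 calls in labeled RNA, 0 to 7 in total RNA and 0 to 11 for the change, none among the 9 genes, and their medians ran from -0.47 to 0.17, -0.34 to 0.27 and -0.80 to 0.63. Values that changed sign ran from -0.18 to 0.46 for exonic Cdk9, from -0.41 to 0.78 for the introns of Ell2, from -0.16 to 0.35 for those of Ccnt1, from -0.95 to 0.55 for those of Ccnt2 and from -0.28 to 0.72 for its ratio. The cause was not tested.

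The median synthesis rate of the 9 genes was 2690, 1362 and 694 at 15, 30 and 60 min alone, 683 for the transcript of highest mean and 481 for the longest coding transcript. The median processing rate was 37.9 and 10.2 at 15 and 60 min alone and 34.9 for the transcript of highest mean. The median degradation rate was 4.63, 1.75 and 1.1 at the 3 times and 2.19 for the transcript of highest mean. The fall over the times largely follows from the division by labeling time. From either replicate alone, the medians were 1510 to 1695, 19.7 to 26.2 and 2.20 to 2.59. Without depth, low values such as the introns of Ell2 and Larp7 have no known counting error.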
